A study of Bos taurus with 16 samples.

Results

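ACTB (ENSBTAG00000026199), GAPDH (ENSBTAG00000014731), YWHAZ (ENSBTAG00000000236) and PPIA (ENSBTAG00000012003), which are widely used as internal standards for RNA measurements, were followed in whole blood of beef steers. They were taken by identifier, with no threshold on their values, and are 4 of the 27607 genes listed. All 4 were present in the tables of raw counts, normalized counts and FPKM. All 4 also passed the filter on low counts that left 13265 genes for testing. The blood came from 16 crossbred steers, 8 labelled high-RFI and 8 labelled low-RFI, taken from the ends of a larger group on a high-forage ration. Residual feed intake (RFI) is what an animal eats beyond the intake that its weight and gain predict. The sample titles begin with HFE for the high-RFI and LFE for the low-RFI group, and the sources used here give no age of the steers. Each steer gave 1 library, prepared from blood of several days mixed before extraction, with a kit that depletes ribosomal and globin RNA.

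A reference gene is used to correct for how much RNA entered an assay, so that a target gene can be read as a ratio to it. This works only as far as the reference keeps its level between animals and between the groups compared. Blood is a mixture of neutrophils, lymphocytes, monocytes, platelets and red cell precursors, and a transcript that these cells carry in unequal amounts can vary with their proportions. ACTB encodes beta-actin, which forms the filaments of the cytoskeleton. GAPDH encodes an enzyme of glycolysis. YWHAZ encodes 14-3-3 zeta, an adaptor that binds phosphorylated proteins, and PPIA encodes cyclophilin A, a peptidyl-prolyl isomerase that helps proteins fold. The genes thus belong to separate pathways, which is a usual reason to combine them.

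A library held between 4.80 and 12.2 M counts, and the size factors by which the authors divided them ranged from 0.622 to 1.46. Size factors did not differ between the groups beyond the spread of the steers (exact permutation test, two-sided, p = 0.332), nor did the share of counts taken by the 10 highest genes, which was between 13.5% and 20.5% (exact permutation p = 0.334). Markers of blood cell types were not analysed here, because the tables list Ensembl identifiers and the reference table pairs none of them with a symbol. The labelled tissue was therefore not checked against markers. In bulk blood, fewer cells of a type and less RNA per cell cannot be told apart. Sample titles number the low-RFI steers 1 to 8 and the high-RFI steers 9 to 16. A list of reads per library that belongs to the study gives the groups in the opposite order, so every direction below is that of the sample labels. With group names exchanged, each would be the opposite.

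ACTB was by far the highest of the 4 per length. The deposited FPKM, which divide the normalized count by a gene length of 1835 bp for ACTB, ranged from 2383 in steer 14 to 3194 in steer 11, with a median of 2811. This placed ACTB at rank 21 of the 21016 genes with a count, and its reads made up between 0.445% and 0.625% of the counts of a library. GAPDH, with a length of 1885 bp, had an FPKM from 262 in steer 14 to 448 in steer 16, with a median of 344, and rank 187. PPIA, with a length of 519 bp, had an FPKM from 238 in steer 16 to 340 in steer 14, with a median of 286, and rank 235. YWHAZ, with a length of 1740 bp, had an FPKM from 148 in steer 2 to 202 in steer 16, with a median of 171, and rank 372. All 4 genes thus lay above 98.2% of the genes with a count.

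The order of the levels per length was ACTB, GAPDH, PPIA and YWHAZ. Neighbours in this order were compared within each steer by an exact two-sided test that exchanges the sign of the log2 FPKM ratio. Its p-values were adjusted by Benjamini-Hochberg over the 3 comparisons. The order was taken from the means of these same FPKM, so the tests are no independent evidence of it. ACTB was 8.30-fold above GAPDH in the geometric mean, and higher in 16 of 16 steers (exact permutation p = 3.05e-05, the smallest this test can give, adjusted p = 4.58e-05). GAPDH was 1.19-fold above PPIA, but between steers this ratio ran from 0.770 to 1.88. Their ranges overlapped, and GAPDH was the higher in 13 of 16 steers, PPIA in steers 6, 14 and 15 (exact permutation p = 0.00531, adjusted p = 0.00531). PPIA was 1.67-fold above YWHAZ and higher in 16 of 16 steers, without overlap of the ranges (exact permutation p = 3.05e-05, adjusted p = 4.58e-05). FPKM rest on the gene lengths of the authors' annotation. For PPIA, GAPDH and ACTB, mammalian genomes also hold near-identical processed copies, and the sources used here do not say how reads with several alignments were counted, so their levels are uncertain by the reads such copies share.

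Between the groups, YWHAZ stood apart from the other members, though no member passed the test across all genes. The normalized count, which is the raw count divided by the size factor of the steer, was for YWHAZ between 2373 and 2899 in high-RFI steers, with a median of 2515. In low-RFI steers it was between 2131 and 2577, with a median of 2307. The groups overlapped, with 3 high-RFI steers (11, 14 and 16) above every low-RFI steer and 5 low-RFI steers below every high-RFI steer. Steer 11 was above low-RFI steer 7 by a very small margin, 2577.1 against 2576.8. Means were 2576 ± 185 in high-RFI steers (SD, n = 8) and 2328 ± 164 in low-RFI steers (SD, n = 8). The log2 fold change of high-RFI over low-RFI was 0.14, with a standard error of 0.06 and a 95% interval from 0.02 to 0.27, which is 10.4% and an interval from 1.19% to 20.4%. In the quasi-likelihood test of edgeR the unadjusted p was 0.0282 and the adjusted p 0.941, and p was 0.0140 when the steers were exchanged between groups (exact permutation of log2 normalized counts, two-sided). In the edgeR comparison 0% of the genes tested passed a false discovery rate of 0.05, against 7 genes (0.0333%) in DESeq2 and 13 in limma with voom weights, and 5.22% (693 genes) had an unadjusted p under 0.05, with 2.77% being also higher in high-RFI steers. Without steer 14 the edgeR count at this rate was 25 and without steer 16 it was 2. A p as small as that of YWHAZ was thus common, and 2.94% of the genes tested had a smaller one. The unadjusted p stayed under 0.05 without 11 of the 16 steers and ran to 0.0587 without the 5 others, which were steers 2, 3 and 5 of the low-RFI group and steers 14 and 16 of the high-RFI group. With steers 14 and 16 both left out, the log2 fold change was 0.09, the unadjusted edgeR p 0.116 and the exact permutation p 0.0586. With library totals as the only scaling the log2 fold change was also 0.09, with an interval from -0.05 to 0.22 and an unadjusted edgeR p of 0.187. Groups without any overlap were found in 0.0226% of the genes tested and in none of the members.

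**Figure D1:**
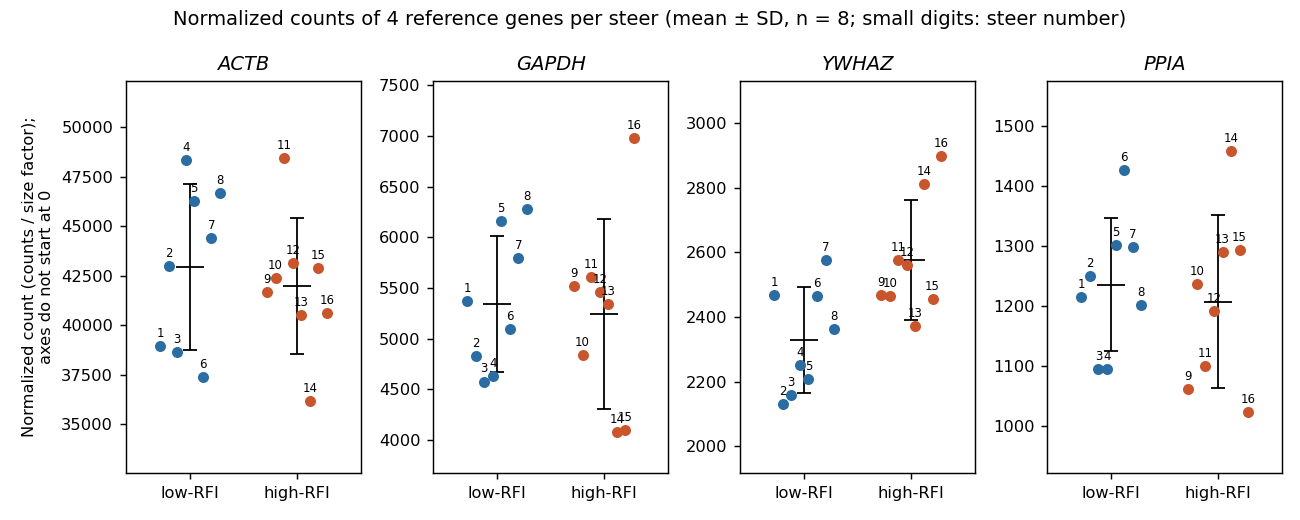
Normalized counts of the 4 reference genes in every steer, in 1 panel per gene with its own vertical axis that does not start at 0. Points are steers with their number, and bars are the mean ± SD of the 8 steers of a group. In YWHAZ 5 low-RFI steers lie below every high-RFI steer, while in ACTB, GAPDH and PPIA the groups overlap widely, and steers 14 and 16 lie at opposite ends in GAPDH and in PPIA.

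High-RFI and low-RFI steers differed in ACTB by less than steers of a single group did. Its normalized count was between 36152 and 48456 in high-RFI steers, with a median of 42022, and between 37360 and 48337 in low-RFI steers, with a median of 43680. One high-RFI steer, number 11, lay above every low-RFI steer, by a small margin, and steer 14 lay below every low-RFI steer. Only 1 of the 8 high-RFI steers, steer 11, lay above the low-RFI median. The log2 fold change was -0.04 with a standard error of 0.08 and a 95% interval from -0.20 to 0.12 (edgeR, unadjusted p = 0.641, adjusted p = 0.999). A change of ACTB from 12.7% lower to 8.96% higher in high-RFI steers is therefore within the interval.

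GAPDH had nearly equal group means but the widest scatter. Its normalized count was between 4082 and 6985 in high-RFI steers, with a median of 5403, and between 4576 and 6284 in low-RFI steers, with a median of 5232. The high-RFI group held both ends of the range, with steers 14 and 15 below and steer 16 above every low-RFI steer. The log2 fold change was -0.03 with a standard error of 0.11 and a 95% interval from -0.26 to 0.19 (edgeR, unadjusted p = 0.771, adjusted p = 0.999).

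PPIA did not pass the test either. Its normalized count was between 1023 and 1459 in high-RFI steers, with a median of 1214, and between 1094 and 1426 in low-RFI steers, with a median of 1232. Here steer 16 was the lowest and steer 14 the highest of all, the reverse of their places in GAPDH. The log2 fold change was -0.04 with a standard error of 0.08 and a 95% interval from -0.20 to 0.13 (edgeR, unadjusted p = 0.645, adjusted p = 0.999). Of the 8 lowest and highest places in the 4 genes, 6 were held by steers 14 and 16, with 3 each. The small log2 fold changes of ACTB, GAPDH and PPIA had no settled sign. In edgeR each was positive with some other member as the scaling. It was 0.01 for ACTB with GAPDH, 0.04 for GAPDH with PPIA and 0.04 for PPIA with GAPDH. The last 2 values cannot both describe the ratio of GAPDH to PPIA. The log2 difference of that ratio, high-RFI minus low-RFI, was -0.00047 in raw counts. With YWHAZ as the scaling all 3 were more negative, at -0.18 for ACTB, -0.17 for GAPDH and -0.17 for PPIA.

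The spread over all 16 steers was smallest for YWHAZ and ACTB and largest for GAPDH. The coefficient of variation of normalized counts, the SD as a share of the mean, was 8.65% for YWHAZ (jackknife standard error 1.64%), 8.77% for ACTB (1.29%), 10.3% for PPIA (1.65%) and 14.9% for GAPDH (2.72%). YWHAZ and ACTB differed by much less than their standard errors, and PPIA differed from both by about the size of them. Counting error alone, taken as Poisson, would give 2.04% for YWHAZ, 0.491% for ACTB, 2.88% for PPIA and 1.38% for GAPDH. It thus made up 7.88% of the variance in PPIA and less in the others. The SD of the log2 normalized count of GAPDH was 0.26 in high-RFI and 0.18 in low-RFI steers, a difference that did not pass an exact permutation test (p = 0.299).

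To judge these values, each member was set beside the 100 genes next above and the 100 next below it in mean normalized count. ACTB has only 11 genes above it, so its set held 111 genes with means from 5644 to 205920. Of these, 13.5% had a lower coefficient of variation than ACTB, and their median was 17%. For YWHAZ, 24% of 200 genes with means from 2140 to 2904 had a lower value, with a median of 12.8%. For PPIA it was 34.5% of 200 genes with means from 1149 to 1286, with a median of 11.8%. For GAPDH it was 52% of 200 genes with means from 3789 to 20654, with a median of 14.7%. By this match ACTB and YWHAZ varied less than most genes of their abundance, and GAPDH was at the middle of its set. Matched on mean FPKM instead, 32.5% of the similar genes varied less than GAPDH and 13% less than PPIA. With counts scaled by library totals it was 11% for YWHAZ. With steers 14 and 16 left out, 9.5% of the similar genes varied less than YWHAZ and 43.5% less than GAPDH.

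**Figure D2:**
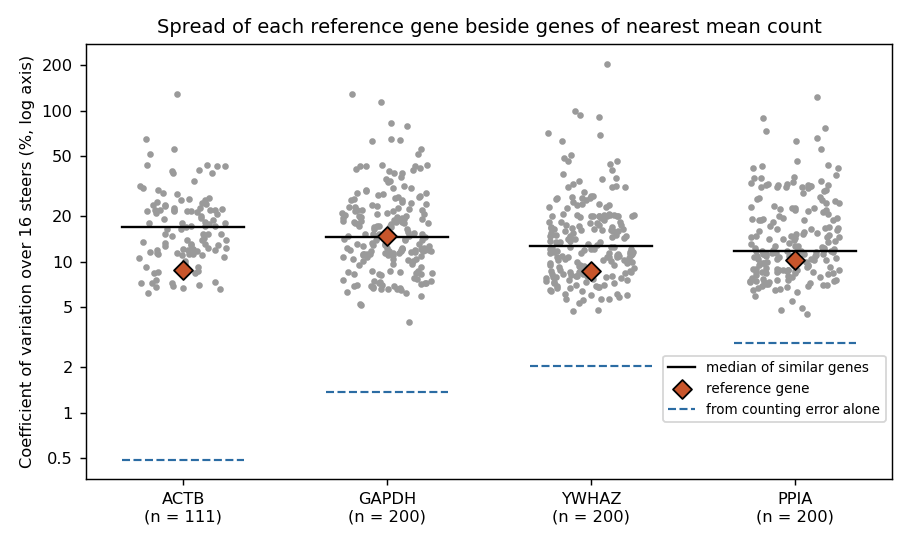
Coefficient of variation over 16 steers, in percent on a log axis, for each reference gene (diamond) and the genes nearest to it in mean normalized count (grey points, number under each name). Solid lines mark the median of these genes and dashed lines the value that counting error alone would give; ACTB, YWHAZ and PPIA lie below the median, at 8.77%, 8.65% and 10.3%, and GAPDH at 14.9% lies on it.

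In each of these sets some genes varied less than the reference gene. The lowest coefficient of variation in the set of GAPDH was 3.99%, in ENSBTAG00000016846, with a length of 3031 bp and normalized counts from 3707 to 4283, a median of 3973. In the set of YWHAZ it was 4.70%, in ENSBTAG00000014766, with a length of 2752 bp and normalized counts from 2430 to 2840, a median of 2592. In the set of PPIA it was 4.49%, in ENSBTAG00000001731, with a length of 3842 bp and normalized counts from 1185 to 1391, a median of 1262. In the set of ACTB it was 6.22%, in ENSBTAG00000009887, with a length of 5212 bp and normalized counts from 9507 to 12395, a median of 10638. The last of them was higher in high-RFI steers by 0.09 on the log2 scale (exact permutation p = 0.0247, unadjusted). These genes were chosen for their low spread in these same steers, so their values describe the sample. The tables do not pair the identifiers with a symbol.

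The ratio of 2 reference genes in a library does not depend on how the library was scaled. By the SD, the steadiest of the 6 ratios of raw counts was YWHAZ to PPIA, with an SD of the log2 ratio of 0.19 over 16 steers and a ratio from 1.70 in steer 5 to 2.83 in steer 16, with a median of 1.98. The least steady was GAPDH to PPIA, with an SD of 0.30 and a ratio from 2.80 in steer 14 to 6.83 in steer 16, a 2.44-fold range, with a median of 4.33. In the others the SD was 0.20 for ACTB to YWHAZ, 0.21 for ACTB to GAPDH, 0.23 for GAPDH to YWHAZ and 0.23 for ACTB to PPIA. Jackknife standard errors of the 6 SDs ran from 0.04 to 0.07. Apart from GAPDH to PPIA, the SDs differed by no more than about the size of these errors. Counting error would give between 0.02 and 0.05 for these SDs. Steer 14 or steer 16 held at least 1 end of the range in each of the 6 ratios, and both ends in GAPDH to PPIA. Without them the SD of GAPDH to PPIA was 0.21, that of ACTB to YWHAZ 0.15 and that of YWHAZ to PPIA 0.15. By the median absolute deviation, scaled to an SD, GAPDH to YWHAZ was the steadiest, at 0.10, ahead of YWHAZ to PPIA at 0.12.

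Read by group over all 16 steers, the 3 ratios with YWHAZ had larger differences than the 3 without it. YWHAZ to PPIA was between 1.84 and 2.83 in high-RFI steers, with a median of 2.07, and between 1.70 and 2.06 in low-RFI steers, with a median of 1.97. The log2 difference of high-RFI minus low-RFI was 0.18 (exact permutation p = 0.0443, adjusted p = 0.214 over the 6 ratios). ACTB to YWHAZ was between 12.9 and 18.8 in high-RFI steers and between 15.2 and 21.5 in low-RFI steers, with 4 low-RFI steers above every high-RFI steer and a log2 difference of -0.18 (exact permutation p = 0.0782, adjusted p = 0.214). GAPDH to YWHAZ was between 1.45 and 2.41 in high-RFI steers and between 2.06 and 2.79 in low-RFI steers, a log2 difference of -0.18 (exact permutation p = 0.107, adjusted p = 0.214). None of these passed 0.05 after adjustment, and they share the counts of YWHAZ. Without steers 14 and 16 the difference was -0.08 for ACTB to YWHAZ, -0.15 for GAPDH to YWHAZ and 0.14 for YWHAZ to PPIA. For the ratios without YWHAZ it was then 0.06 for ACTB to GAPDH, 0.06 for ACTB to PPIA and -0.01 for GAPDH to PPIA. Without steer 14 alone that of GAPDH to YWHAZ was -0.12. For ACTB to GAPDH, ACTB to PPIA and GAPDH to PPIA the log2 difference was at most 0.01 in size, each with an adjusted exact permutation p of 0.999.

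**Figure D3:**
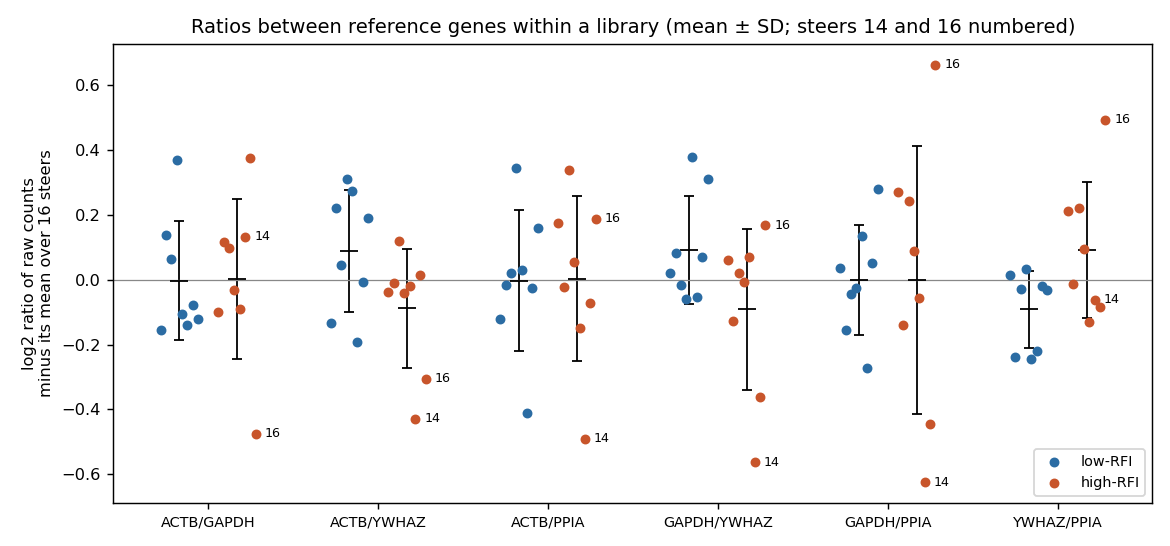
Log2 ratio of raw counts for the 6 pairs of reference genes, minus the mean of that pair over 16 steers. Points are steers, bars are the mean ± SD of the 8 steers of a group, and steers 14 and 16 are numbered; the group means differ by 0.18 in size in the 3 ratios with YWHAZ, and steers 14 and 16 are at opposite ends in GAPDH/PPIA.

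The mean SD of a gene's log2 ratios to the others is the M value of the geNorm method, where a low value stands for a steady gene. M was 0.206 for YWHAZ (jackknife standard error 0.0355), 0.213 for ACTB (0.0328), 0.241 for PPIA (0.0429) and 0.247 for GAPDH (0.0465). The lowest and the highest value differed by about the size of their standard errors. YWHAZ and ACTB differed by much less than that, and so did PPIA and GAPDH. When the gene of highest M was removed in turn, GAPDH left first and ACTB second, and YWHAZ and PPIA remained. The first of these steps rested on the small gap between GAPDH and PPIA. The second also rested on a small gap, an SD of 0.20 for ACTB to YWHAZ against 0.19 for YWHAZ to PPIA. In low-RFI steers M was 0.158 for YWHAZ, 0.169 for PPIA, 0.173 for GAPDH and 0.196 for ACTB. In high-RFI steers M was 0.214 for YWHAZ, 0.228 for ACTB, 0.292 for PPIA and 0.303 for GAPDH. The place of ACTB in the order thus differed between the groups, while YWHAZ was lowest in both. With steers 14 and 16 left out, M over both groups was between 0.158 and 0.187.

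If a reference gene were used in place of the size factor, each steer would be shifted by the deviation of that gene. For GAPDH this deviation, the log2 of its count over the size factor centred on the mean of the steers, ran from -0.36 in steer 14 to 0.42 in steer 16, and it was 0.1 or less in size in 6 of 16 steers. For ACTB it ran from -0.23 in steer 14 to 0.20 in steer 11, for PPIA from -0.25 in steer 16 to 0.26 in steer 14, and for YWHAZ from -0.20 in steer 2 to 0.25 in steer 16. The geometric mean of all 4 genes ran from -0.16 in steer 3 to 0.10 in steer 7, and 15 of 16 steers lay within 0.1. Its SD was 0.07, against 0.12 for YWHAZ, 0.13 for ACTB, 0.15 for PPIA and 0.21 for GAPDH alone. Among all 15 subsets of the 4 genes, ACTB with YWHAZ and PPIA had the lowest SD, 0.06. ACTB with YWHAZ had the lowest of the pairs, 0.07. The subset was picked by this value, so its rank is a description of these steers.

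**Figure D4:**
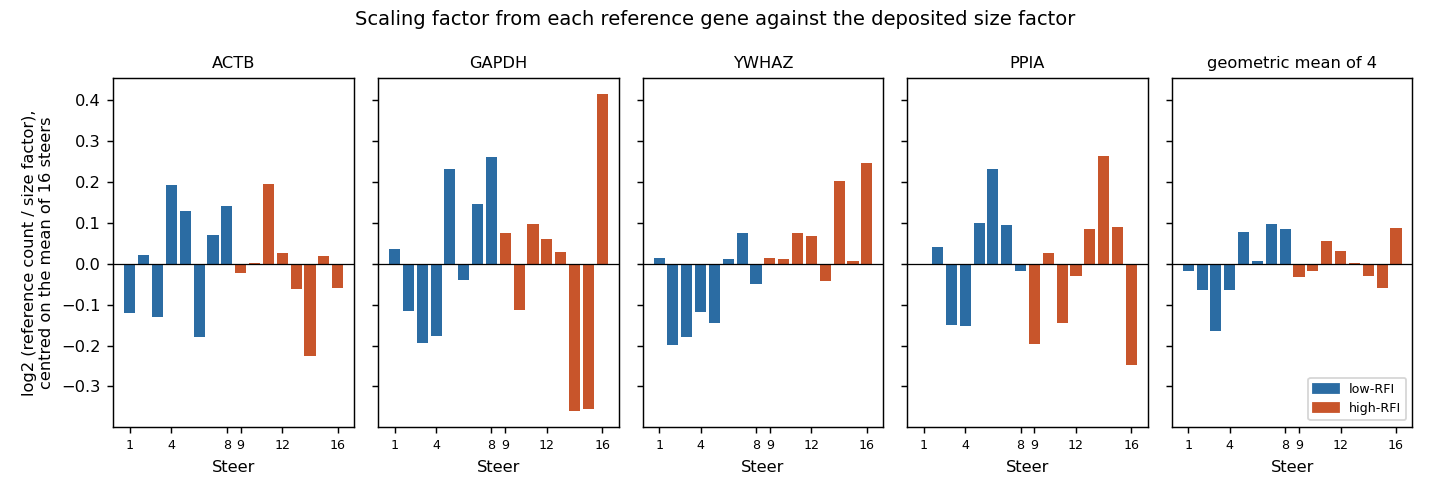
Log2 of the count of a reference gene over the deposited size factor, centred on the mean of 16 steers, for each gene and for the geometric mean of the 4. Each bar is 1 steer, coloured by group; GAPDH runs from -0.36 to 0.42, and the geometric mean from -0.16 to 0.10.

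Scaling by a gene shifted the median of all genes opposite to the group difference of that gene, but not by exactly its size. In edgeR with TMM scaling the log2 fold change was -0.03 for GAPDH and -0.04 for PPIA. With either as the scaling, the median log2 fold change of all genes was 0.05. The splits into higher and lower thus follow the differences of the members in direction and are no further evidence of them. The totals changed as well, and the part of steer-to-steer scatter of the scaling gene in this was not tested. With the TMM scaling of edgeR, 693 of 13265 genes had an unadjusted p under 0.05, of which 368 were higher and 325 lower in high-RFI steers. With the count of YWHAZ as the scaling there were 1988, of which 39 were higher and 1949 lower, and the median log2 fold change of all genes moved from 0.00 to -0.14. Scaling by GAPDH gave 277 genes, 212 higher and 65 lower, and scaling by PPIA gave 556, 439 higher and 117 lower, both with a median log2 fold change of 0.05. Scaling by ACTB gave 371 genes, 215 higher and 156 lower, with a median of 0.03. The geometric mean of the 4 genes gave 549 genes, 268 higher and 281 lower, with a median of -0.01. In edgeR at a false discovery rate of 0.05 there were 2 genes with YWHAZ scaling and 1 with PPIA scaling, all lower, and 0 with the others. Scaling by the library totals alone gave 772 genes, 149 higher and 623 lower, with a median of -0.05.

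**Figure D5:**
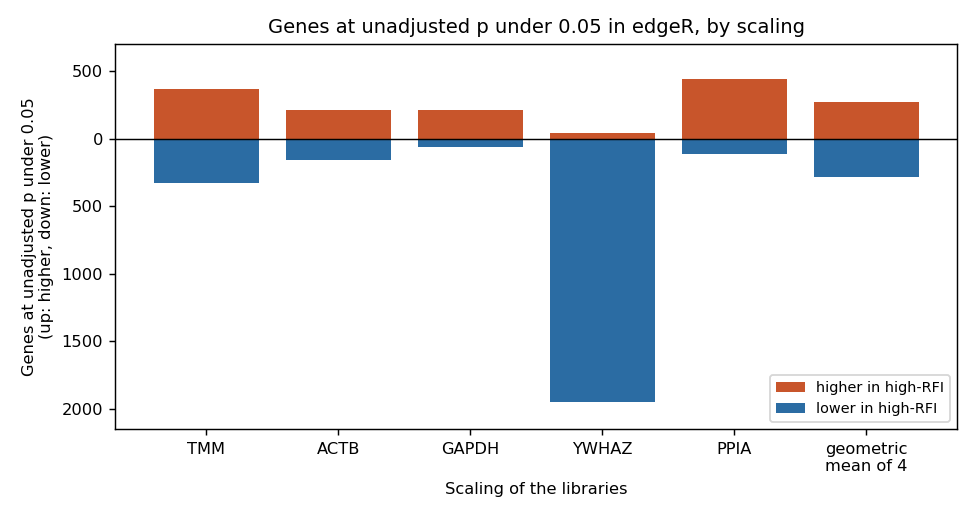
Number of genes with an unadjusted edgeR p under 0.05 between high-RFI and low-RFI steers, by the scaling of the libraries, with genes higher in high-RFI steers drawn up and genes lower drawn down from 0. TMM gives 368 higher and 325 lower, scaling by YWHAZ gives 39 higher and 1949 lower, and the geometric mean of the 4 genes gives 268 and 281.

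No pair of members was correlated over the steers past the threshold. Pearson's r of log2 normalized counts over 16 steers ran from -0.391 for GAPDH with PPIA to 0.332 for ACTB with GAPDH. For GAPDH with PPIA the permutation p was 0.133 and Spearman's rho -0.279 (permutation p = 0.293), and r was -0.132 without steers 14 and 15, those farthest from the median of GAPDH. For ACTB with GAPDH the permutation p was 0.209 and rho 0.421 (permutation p = 0.106), and r was 0.126 without steers 6 and 14. Of the 10 relations computed, 6 between members and 4 with the library total, none had an adjusted p under 0.446 for r or 0.528 for rho. Within the high-RFI group r of GAPDH with PPIA was -0.863 (exact permutation p = 0.00642, adjusted p = 0.0642) and within the low-RFI group 0.442 (exact permutation p = 0.275, adjusted p = 0.556). Spearman's rho was -0.952 in the high-RFI and 0.429 in the low-RFI group. The difference between the groups in Pearson's r did not pass after adjustment (exact permutation p = 0.0208, adjusted p = 0.208). Without steers 14 and 16, Pearson's r over the remaining steers of both groups together was 0.0415. That value pools the groups and does not give r within the high-RFI group without these steers.

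Of all genes compared, those most like each member in pattern were none of the other 3 members. Among 8408 other genes with a mean normalized count of at least 100 and a count in every steer, the one most like GAPDH was ENSBTAG00000006464, with r = 0.942 over 16 steers, a length of 2846 bp and normalized counts from 289 in steer 14 to 686 in steer 16. In all, 79 genes had an r above 0.8 with GAPDH, against 15 for YWHAZ, 7 for ACTB and 7 for PPIA. The gene most like YWHAZ was ENSBTAG00000007296 (r = 0.928, length 384 bp), with normalized counts from 251 in steer 2 to 348 in steer 16. The gene most like PPIA was ENSBTAG00000052184 (r = 0.901, length 477 bp), with normalized counts from 173 in steer 16 to 288 in steer 6. The gene most like ACTB was ENSBTAG00000008172 (r = 0.875, length 2030 bp), with normalized counts from 254 in steer 14 to 727 in steer 8. These are the highest of 8408 coefficients and share size factors with the members, so they are given as a description, without a test.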

How the data were processed

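RNA-seq was done on whole blood of 16 steers, and groups were taken from the residual food intake given in the sample labels. Per the labels and the study's methods, the authors trimmed reads with Trimmomatic 0.39 and aligned them with HISAT2 2.2.1 to ARS-UCD1.2. DESeq2 1.30.1 and 1.20.0 also stand in the submitters' processing notes. The sources used here do not say how reads with several alignments or on either strand were counted. From the authors came 3 deposited tables of 16 columns: raw counts per gene, normalized counts (a signal per gene, the count divided by a DESeq2 size factor) and FPKM. The deposited normalized counts times the size factor were whole reads in 100% of values within 0.001, and gene lengths were recovered from the FPKM. No column of these tables was left unmapped.

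Raw counts were fitted in edgeR 4.0.16 with its quasi-likelihood test (R 4.3.3, TMM factors, filterByExpr, robust fit) and Benjamini-Hochberg adjustment over 13265 genes. DESeq2 1.42.0 and limma 3.58.1 served as alternatives. For a single value, steers were permuted exactly, two-sided, across the 12870 ways of choosing 8 steers, whose smallest p is 0.0001554. Permutation p-values of correlations over 16 steers used 100000 resamples. FPKM were tested on a log2 scale with a pseudocount of 1 or 0.1. Spread was compared with the 100 genes above and 100 below in mean normalized count. Scripts were tested on simulated data and used numpy 2.4.6, scipy 1.17.1 and pandas 2.3.3.

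Named genes were the 4 members and, for each, the gene of lowest coefficient of variation among its neighbours and the gene of highest Pearson's r. The symbols of the members come with the study description used here. The members and lists were chosen with earlier results of these data known. The test of the order of FPKM levels, the analyses without steers 14 and 16, the alternatives for the count of genes at an unadjusted p and the ranks of spread without single steers were chosen after seeing the data. The 5 gene lists by symbol, blood cell markers among them, were not analysed here, because 0 identifiers of the reference table matched those of the files. Counting error does not cover duplicate PCR reads. Replicates are separate steers.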

Additional observations from a re-analysis of the deposited data

Results flagged for a closer look

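Each group of 8 steers was searched for a single steer far from the others, in the normalized counts of the 4 genes and in the 6 ratios of raw counts. None of the 20 groups tested passed Dixon's 95% limit for the gap to the nearest steer over the whole range, where chance would flag about 1 in 20. The nearest to it was steer 16 in the ratio of YWHAZ to PPIA in the high-RFI group, at 0.492, followed by steer 4 in ACTB to GAPDH in the low-RFI group, at 0.485.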

How the results depend on the processing

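Of 612 alternative values for 46 results, 549 were labelled the same. For fold changes, ratio differences and correlations this meant the same direction and, where tested, the same call. For numbers of genes it meant a change within a set fold range. For SDs, coefficients of variation and their ranks it meant a move smaller than the jackknife standard error. Values without single steers make up that standard error, so their label could hardly change and says little about robustness. Signs turned in small fold changes and ratio differences and in several correlations. The log2 fold change of ACTB was 0.0136 with GAPDH scaling, 0.0107 with PPIA scaling and 0.00965 without steers 14 and 16. That of GAPDH was 0.00284 with ACTB scaling, 0.0420 with PPIA scaling and from -0.0979 to 0.0148 without single steers, and that of PPIA was 0.0422 with GAPDH scaling. Without single steers the log2 ratio difference ran from -0.0468 to 0.0746 for ACTB to GAPDH, from -0.0524 to 0.0764 for ACTB to PPIA and from -0.0952 to 0.0886 for GAPDH to PPIA. Pearson's r turned to 0.442 for GAPDH with PPIA in low-RFI steers and to -0.127 for YWHAZ with PPIA in high-RFI steers. With the library total it turned in high-RFI steers to 0.712 for ACTB, -0.187 for YWHAZ and -0.347 for PPIA, and with CPM of the library total to -0.0023 for YWHAZ.

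Genes past the false discovery rate numbered 7 in DESeq2, 13 in limma with voom weights, 26 without steers 14 and 16, and from 0 to 25 without single steers. Without the filter on low counts, genes at an unadjusted p under 0.05 numbered 758 with ACTB scaling, 633 with GAPDH, 874 with PPIA and 899 with the 4 members, where more genes were tested. The scaled median absolute deviation gave an SD of 0.16 for ACTB to GAPDH, 0.10 for GAPDH to YWHAZ, 0.23 for GAPDH to PPIA and 0.12 for YWHAZ to PPIA. Without steers 14 and 16 the SD was 0.15 for ACTB to YWHAZ and 0.21 for GAPDH to PPIA, and the coefficient of variation 11.8% for GAPDH, 6.34% for YWHAZ and 8.51% for PPIA. The percent of similar genes with a lower coefficient of variation was for GAPDH 32.5% matched on FPKM, 42% on library totals and 43.5% without those steers. It was for YWHAZ 11% on library totals and 9.5% without those steers, and for PPIA 13% matched on FPKM. The cause of these moves was not tested. No paired analysis was possible because the groups share no replicate number.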

Other observations

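The correlation of ACTB with the library total had opposite signs in the groups. Pearson's r of the log2 normalized count with the library total was 0.712 in high-RFI steers (rho 0.524, exact permutation p of r = 0.0337, adjusted p = 0.168) and -0.728 in low-RFI steers (rho -0.667, exact permutation p of r = 0.0273, adjusted p = 0.273). The difference between the groups gave an exact permutation p of 0.0429 and an adjusted p of 0.214 over the 10 relations. Neither group passed after adjustment. Over both groups together r was -0.30, and it was 0.27 without steers 4 and 6, those farthest from the median library total.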
